A study of Mus musculus with 4 samples.

Results

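In lung organoid cultures macrophage-like cells carried 6 of 7 CC chemokine genes and mesenchymal-like cells also carried Ccl2 and Ccl7 (with low levels of Ccl9), while Ccl21a belonged to lymphatic endothelial-like cells of the starting population. The 7 genes, Ccl2, Ccl3, Ccl4, Ccl6, Ccl7, Ccl9 and Ccl21a, were chosen by symbol among the 22547 features of the count matrices, and each symbol matched 1 feature. The mice carried Gramd2creERT2 and mTmG. In such mice a tamoxifen-inducible Cre driven from Gramd2, a gene of alveolar type 1 (AT1) cells, turns a membrane red reporter into a membrane green one. Flow-sorted GFP+ lung cells were day 0. The 3 later samples were cultures of such cells at days 8, 13 and 20. The cells shared their Matrigel with MLg, a fibroblast line from mouse lung, on Transwell inserts, with serum, insulin transferrin and SB 431542, an inhibitor of the TGF-beta receptor kinase. Culture cells were enriched with beads against the epithelial protein EpCAM before 10x Chromium 3' sequencing, and day 0 cells were not described as bead-enriched. Age, sex and the number of animals were not given in the sources used here.

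CC chemokines are small secreted proteins that draw leukocytes along a gradient, and their name comes from adjacent cysteines near the start of the mature protein. Ccl2 and Ccl7 attract monocytes through the receptor Ccr2. Ccl3 and Ccl4 are inflammatory chemokines of macrophages and lymphocytes, and Ccl3 acts on Ccr1. Ccl6 and Ccl9 are rodent chemokines of myeloid cells that act on Ccr1. Ccl21a guides Ccr7-bearing T cells and dendritic cells into lymphatic vessels and lymph nodes. In the lung, resident macrophages, recruited monocytes and fibroblasts are known sources of the inflammatory members.

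The genes lie in 3 places of the mm10 genome, by the GENCODE vM21 annotation. Ccl2 (chr11:82035571-82037453) and Ccl7 (chr11:82045712-82047525) are neighbours on the plus strand. Ccl9 (chr11:83572919-83578636), Ccl6 (chr11:83587882-83593087) and Ccl3 (chr11:83647844-83649355) on the minus strand and Ccl4 (chr11:83662584-83664683) on the plus strand form a second group. Ccl21a (chr4:42772860-42773993) is on the minus strand of chromosome 4. The stretch of 54 coding bases around the adjacent cysteines is printed for each gene, because it is the shared feature of the family and shows how far the members differ. Capitals mark the 6 bases of the cysteine pair, which lies in exon 3 of Ccl6 and Ccl9 and in exon 2 of the others.
Ccl2: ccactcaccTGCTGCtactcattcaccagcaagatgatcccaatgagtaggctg
Ccl7: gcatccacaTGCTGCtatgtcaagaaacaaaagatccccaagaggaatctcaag
Ccl3: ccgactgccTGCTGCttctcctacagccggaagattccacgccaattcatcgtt
Ccl4: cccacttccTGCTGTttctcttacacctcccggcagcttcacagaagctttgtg
Ccl6: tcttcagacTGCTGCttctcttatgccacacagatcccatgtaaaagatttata
Ccl9: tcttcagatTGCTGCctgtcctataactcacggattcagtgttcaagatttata
Ccl21a: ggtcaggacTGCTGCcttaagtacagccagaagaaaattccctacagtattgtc
Aligned over the whole coding sequence, Ccl3 and Ccl4 shared 68.4% of positions, Ccl6 and Ccl9 shared 65.1%, and Ccl2 and Ccl7 shared 48.0%. Ccl21a and the annotated copy Ccl21b shared 400 of 402 aligned coding positions, so the split of reads between Ccl21 copies is uncertain.

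Each day was a single library, so no comparison between days has a replicate check and no p-value is given. Levels are CPM: the unique molecular identifiers (UMIs) of a gene were summed over all cells of a class, divided by all UMIs of those cells and scaled to 1e6. The intervals given are exact 95% Poisson intervals for levels and ratios and exact (Clopper-Pearson) binomial intervals for shares, and they cover counting error only. A gene was counted as higher or lower where the levels differed at least 2-fold, the larger reached 20 CPM and the interval of the ratio excluded 1. The libraries held 8902, 11390, 11445 and 10368 barcodes on days 0, 8, 13 and 20. Of these, 6827, 7174, 8458 and 8417 passed the filters on genes, mitochondrial share and doublets. Median depth per barcode that passed the first 2 of these filters was 2558.5 UMIs on day 0 and 9527 to 17075 UMIs in cultures. Pairs of libraries shared 25 to 41 barcodes.

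The labels call all samples alveolar epithelial cells, and the data go against that for most barcodes. Macrophage-like cells made up 9.35% of the cells on day 0 and 82.7%, 64.5% and 53.5% on days 8, 13 and 20 (638, 5933, 5453 and 4502 cells). Mesenchymal-like cells made up 1.92%, 8.07%, 14.4% and 34.1% (131, 579, 1215 and 2871 cells). Of 15 macrophage markers, 15 reached 20 CPM in the macrophage-like class on day 0 and 12 on each culture day, with Chil3, Krt79 and Siglecf of resident alveolar macrophages below that level in culture. In the day 0 library, tdTomato, the red reporter, exceeded EGFP, the green one, in most classes outside the epithelium, which goes against the GFP+ label of these cells. EGFP and tdTomato stood at 30.2 and 124 CPM in macrophage-like, 10.5 and 149 CPM in mesenchymal-like and 101 and 591 CPM in endothelial cells of day 0, against 1831 and 115 CPM in AT1-like cells. The macrophage marker list summed to 19575, 7592, 15249 and 15607 CPM in the macrophage-like class. Single genes weighed heavily in these sums, with Chil3 at 12395.5 CPM on day 0 and C1qb at 5895 CPM on day 13. Different clusters made up the class on different days. Cluster 16 (led by Chil3, Fabp1 and Ear2) held 589 cells of day 0, clusters 1, 6, 7 and 9 held most cells of day 8, cluster 0 (Ms4a7, Apoe, C1qb) held 3723 cells of day 13, and clusters 0 and 4 held 1813 and 1366 cells of day 20. In cultures, MLg fibroblasts and mesenchymal cells carried over from the sort cannot be told apart.

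In cultures, macrophage-like cells held most UMIs of each of the 6 detected members on days 8 and 13, and of each but Ccl2 on day 20. They held 96.7%, 67.2% and 34.8% of all Ccl2 UMIs on days 8, 13 and 20, and mesenchymal-like cells held 2.64%, 28.9% and 64.7%. For Ccl7, macrophage-like cells held 98.5%, 90.1% and 73.2%, and mesenchymal-like cells 0.850%, 5.51% and 25.9%. On each culture day macrophage-like cells held at least 90.05% of the Ccl3, 87.5% of the Ccl4 and 95.5% of the Ccl6 UMIs. Ccl9 had 98.6%, 89.0% and 73.7% of its UMIs in macrophage-like cells and 0.759%, 7.04% and 25.8% in mesenchymal-like cells, close to the shares of Ccl7 on day 20. These shares depend on how many cells of each class a library held, and the EpCAM enrichment and filters set that number in part.

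**Figure D1:**
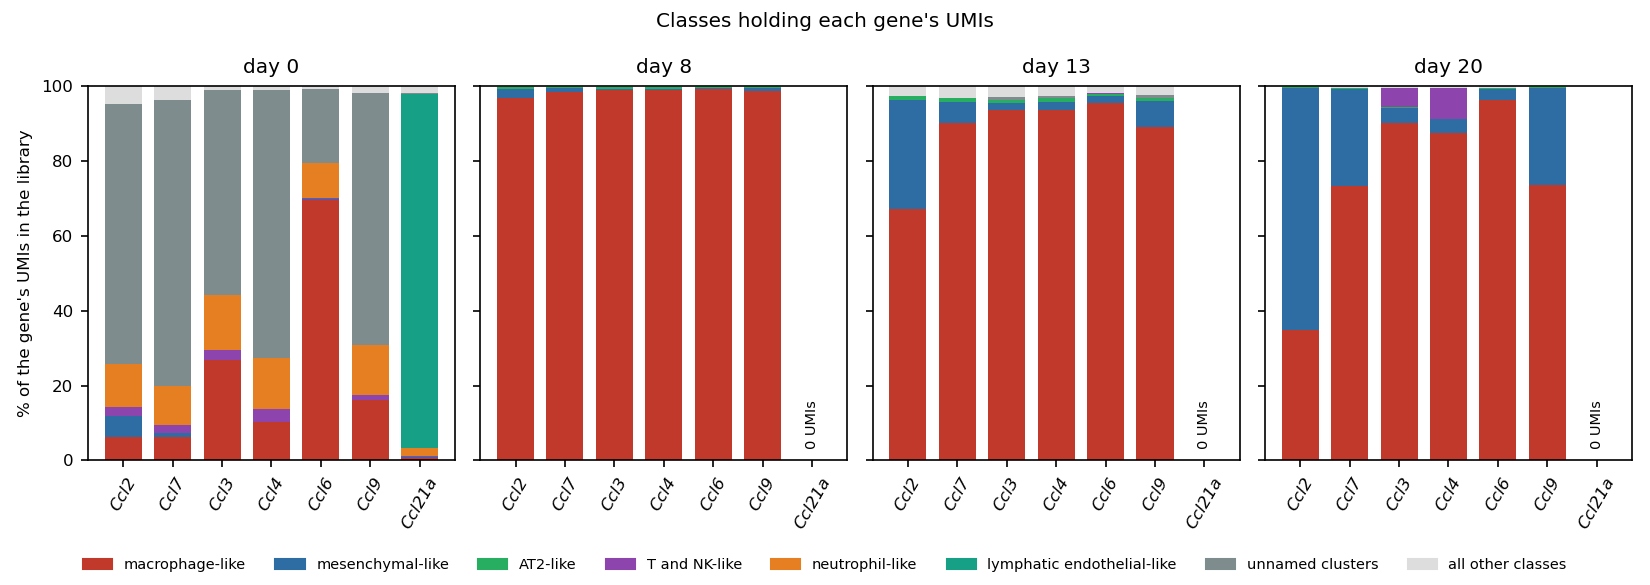
Share of each gene's UMIs (y axis, % of the gene's UMIs in the library) by class for the 4 days, 1 library each. Macrophage-like cells hold most UMIs in cultures except for Ccl2 on day 20, where mesenchymal-like cells hold 64.7%, and Ccl21a had 0 UMIs in the cultures.

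The monocyte attractants Ccl2 and Ccl7 had their highest level in macrophage-like cells of day 8. Ccl2 stood at 34.1, 2603, 553 and 548 CPM in macrophage-like cells on days 0, 8, 13 and 20. Ccl7 stood at 23.2, 1302, 419.6 and 400.7 CPM. Both were low on day 0, highest on day 8 and nearly level between days 13 and 20. For shares of cells, each cell was thinned to 2000 UMIs, and cells with fewer UMIs were left out of thinned shares. The share of macrophage-like cells with a Ccl2 UMI was then 3.95%, 85.9%, 41.8% and 44.5%, and for Ccl7 it was 1.62%, 70.3%, 37.5% and 36.1%. Without thinning, 5760 of the 5933 macrophage-like cells of day 8 had a Ccl2 UMI. On day 0, 70.1% of the Ccl2 UMIs of the class came from the 1% of its cells with the most, against 6.81% on day 8, so the day 0 level rests on a few cells.

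Mesenchymal-like cells carried Ccl2 at levels near those of macrophage-like cells late in culture. Ccl2 stood at 325, 632, 441 and 774 CPM in mesenchymal-like cells on days 0, 8, 13 and 20, and Ccl7 at 39.3, 99.8, 47.7 and 108 CPM. After thinning, 3.85%, 49.5%, 33.1% and 38.1% of these cells had a Ccl2 UMI and 2.56%, 15.1%, 8.45% and 12.2% a Ccl7 UMI. The day 0 value of Ccl2 came from 124 UMIs in 4 of 131 cells. With day 0 clustered on its own, mesenchymal-like cells held 1 Ccl2 UMI. The main mesenchymal-like cluster of day 0, cluster 37 with 125 cells, had 3.15 CPM of Ccl2, which is 1 UMI. On day 20 the level differed among mesenchymal-like clusters. Ccl2 reached 1440 CPM in cluster 25, whose leading genes include the interferon-induced Igtp and Iigp1, and 1140 CPM in cluster 2, against 465 CPM in cluster 5 and 499.5 CPM in the cycling cluster 13. Ccl7 had the same order at the top, with 246 and 169.9 CPM in clusters 25 and 2 and 54.7 and 51.1 CPM in clusters 5 and 13. On day 8, the small mesenchymal-like cluster 23 (113 cells, median 961 UMIs) had 1224 CPM of Ccl2 together with 171 CPM of Ccl3 and 185 CPM of Ccl6.

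Among macrophage-like cells, the inflammatory pair Ccl3 and Ccl4 was also highest on day 8. Ccl3 stood at 188, 445, 187 and 163 CPM in macrophage-like cells on days 0, 8, 13 and 20. Ccl4 stood at 86.0, 622, 228 and 283 CPM. For Ccl3, day 8 was highest, days 0 and 13 had overlapping intervals and day 20 was slightly lower. After thinning, 16.2%, 48.2%, 22.9% and 23.1% of macrophage-like cells had a Ccl3 UMI and 2.87%, 50.2%, 21.1% and 28.0% a Ccl4 UMI. In mesenchymal-like cells neither gene passed 15.1 CPM on any day, and both had 0 UMIs there on day 0.

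A small group of T and NK-like cells had the highest levels of Ccl3 and Ccl4 in the series. On day 20, 67 such cells had 2054 CPM of Ccl4, against 43.3 CPM in 852 such cells of day 0, a ratio of 47.4 (39.2 to 57.8). Ccl3 had 696 CPM on day 20 and 27.8 CPM on day 0, a ratio of 25.1 (19.6 to 32.5). Of the 6137 genes tested in this class, 10.6% were higher and 19.4% lower on day 20, and of the members Ccl3, Ccl4 and Ccl6 were higher and Ccl21a lower. Cluster 38, led by the cytotoxic granule gene Gzmb with Nkg7 and Cd3d, held 55 of the day 20 cells, and no cell of that cluster came from day 0. Thus different T and NK-like clusters are set against each other here. With each library clustered on its own, 68 such cells of day 20 were set against 890 of day 0, and the ratio was 5.67 (5.21 to 6.17) for Ccl4 and 3.02 (2.66 to 3.42) for Ccl3. The Ccl6 call was then lost, at a ratio of 1.26. Despite their small number, the day 20 cells held 8.20% of the Ccl4 UMIs and 4.95% of the Ccl3 UMIs of the library.

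Ccl6 and Ccl9, the myeloid chemokines of rodents, differed from each other over time. Ccl6 stood at 3609, 1892, 1339 and 936 CPM in macrophage-like cells on days 0, 8, 13 and 20, lower on each later day in the joint clustering. Ccl9 stood at 88.2, 375, 99.99 and 59.1 CPM, with its highest level on day 8. After thinning, 93.9%, 66.8%, 70.1% and 60.9% of macrophage-like cells had a Ccl6 UMI and 11.5%, 46.1%, 13.1% and 8.35% a Ccl9 UMI. Ccl6 was the member with the highest macrophage-like level on days 0, 13 and 20, and Ccl2 on day 8. Reads come from the 3' end of each transcript, so these levels were not divided by length. In mesenchymal-like cells Ccl6 did not pass 45.2 CPM and Ccl9 did not pass 25.7 CPM.

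**Figure D2:**
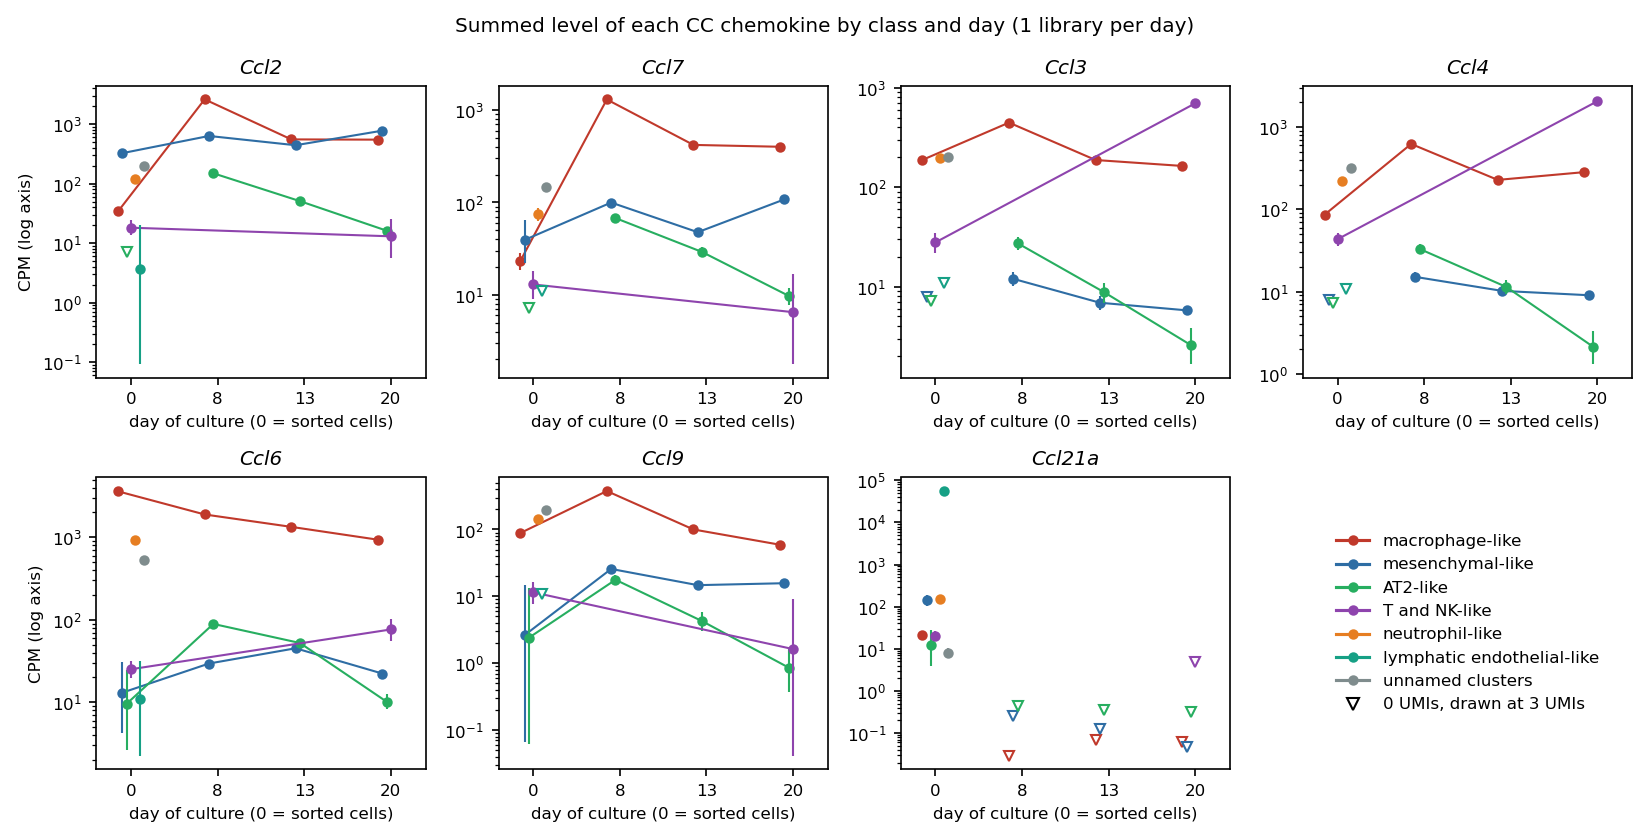
Level of each gene (y axis, CPM of the summed UMIs, log scale) by day of culture and class, 1 library per day. Bars are exact 95% Poisson intervals and open triangles mark 0 UMIs drawn at 3 UMIs, and macrophage-like cells of day 8 have the highest level of Ccl2, Ccl7 and Ccl9.

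Against day 0, macrophage-like cells of day 8 had higher levels of 5 members. Of the 6426 genes tested in that comparison, 11.2% were higher and 17.3% lower by the same rule. The ratio of day 8 to day 0 was 76.3 (64.5 to 90.8) for Ccl2, 56.2 (45.9 to 69.6) for Ccl7, 7.23 (6.51 to 8.07) for Ccl4, 4.26 (3.83 to 4.74) for Ccl9 and 2.37 (2.21 to 2.55) for Ccl3. Ccl6, at 0.524 of its day 0 level (0.516 to 0.533), did not reach a 2-fold difference, and its direction turned with each library clustered on its own (log2 ratio 0.16 in place of -0.93). Ccl21a was lower, with 0 UMIs on day 8 and 87 UMIs on day 0. That day 0 level was 21.7 CPM, beside 55570.5 CPM in lymphatic endothelial-like cells. Whether free RNA from those cells gave it was not tested. The median log2 ratio was 2.09 over the 7 members and -0.08 over all genes tested. Day 0 was sorted lung and day 8 was cultured and bead-enriched, so time, culture, enrichment and the change of clusters cannot be told apart. When day 0 was clustered on its own, macrophage-like cells of day 0 held more Ccl2 and Ccl7, and the log2 ratios were 3.72 and 3.18 in place of 6.25 and 5.81. For Ccl4 the log2 ratio, 2.85 as reported, was 1.66 under that clustering and 5.84 without the 1% of cells with most UMIs of the gene, where Ccl2 and Ccl7 had 7.90 and 8.26. For the other called genes with UMIs in cultures, the alternatives gave 1.46 to 2.34 for Ccl9 and 1.24 to 1.84 for Ccl3.

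Between days 8 and 13, 5 of the 6 members tested were lower in macrophage-like cells. Of 5736 genes tested, 6.64% were lower and 4.29% higher. The ratio of day 13 to day 8 was 0.212 (0.210 to 0.215) for Ccl2, 0.266 (0.258 to 0.275) for Ccl9, 0.322 (0.317 to 0.327) for Ccl7, 0.366 (0.358 to 0.374) for Ccl4 and 0.420 (0.411 to 0.430) for Ccl3. Ccl6 had a ratio of 0.708 and was not called. The median log2 ratio was -1.54 over the members tested and -0.11 over all genes tested.

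Day 20 differed little from day 13 for these genes in macrophage-like cells. No member reached a 2-fold difference, where 1.82% of 5537 genes were higher and 0.849% lower. Ccl2 had a ratio of 0.990 (0.973 to 1.01), Ccl7 of 0.955 (0.936 to 0.974), Ccl3 of 0.872 (0.845 to 0.899) and Ccl4 of 1.24 (1.21 to 1.28). Ccl6 and Ccl9 had ratios of 0.699 and 0.591. Set against day 8, all 6 members tested were lower on day 20, where 5.84% of 5842 genes were lower and 5.91% higher. Their ratios ran from 0.157 for Ccl9 to 0.495 (0.489 to 0.4996) for Ccl6.

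In mesenchymal-like cells, Ccl7 was the member called most often between days. Of the 5 members tested, Ccl7 and Ccl9 were higher and Ccl21a lower on day 8 than on day 0, where 16.1% of 7252 genes were higher and 30% lower. The day 0 side of Ccl7 was 15 UMIs and that of Ccl9 was 1 UMI. Ccl7 was lower on day 13 than on day 8, with a ratio of 0.478 (0.440 to 0.518), where 0.41% of 5604 genes were lower and 1.27% higher. On day 20 it was higher than on day 13, with a ratio of 2.27 (2.13 to 2.41), where 0.83% of 5541 genes were higher and 0.74% lower. Ccl2 moved the same way without reaching 2-fold, at 0.698 (0.678 to 0.719) of its day 8 level on day 13 and 1.76 (1.72 to 1.79) times its day 13 level on day 20. Ccl6 was lower on day 20 than on day 13, with a ratio of 0.494, at 22.3 CPM against 45.2 CPM. From day 8 to day 20, 0 of the 4 members tested were called, where 1.85% of 5608 genes were higher and 0.767% lower. The log2 ratios of Ccl2 and Ccl7 in that comparison, 0.29 and 0.11, turned to -0.29 and -1.21 with cells weighted equally. The Ccl7 call between days 8 and 13 was lost under 8 of the alternatives tried, among them leaving out the low-depth cluster 23 (log2 ratio -0.89 in place of -1.07), and that between days 13 and 20 with doublets kept (0.94 in place of 1.18). The Ccl6 call was lost under 4 alternatives. On day 20, clusters 25 and 2 with high Ccl2 and Ccl7 held 270 and 1231 of the 2871 mesenchymal-like cells. On day 13 they held 36 and 480 of 1215 cells, so the counts also differ because the class was larger on day 20.

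**Figure D3:**
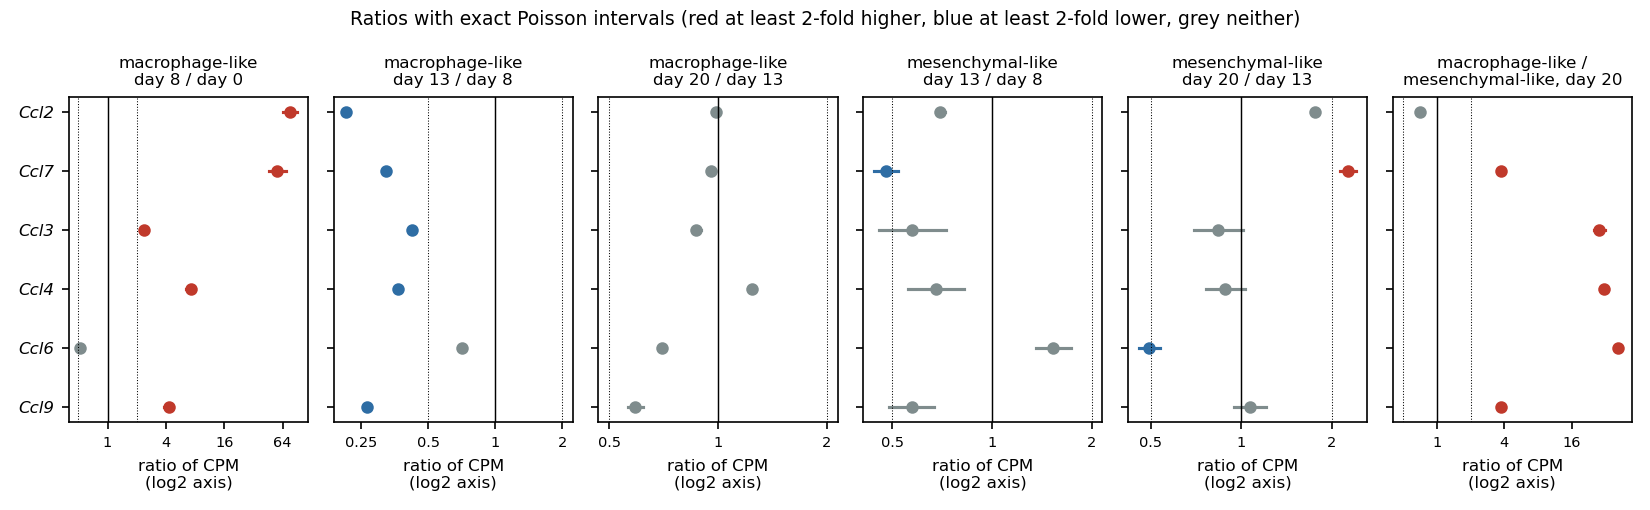
Ratio of CPM (x axis, log2 scale) of 6 members between days in macrophage-like and mesenchymal-like cells, and between the 2 classes on day 20, with exact 95% Poisson intervals from 1 library per day. In macrophage-like cells 5 members are at least 2-fold higher on day 8 than on day 0 and lower on day 13 than on day 8, and on day 20 Ccl2 is the only one of the 6 not at least 2-fold higher in macrophage-like than in mesenchymal-like cells.

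Set against mesenchymal-like cells of the same library, macrophage-like cells had more of every member on day 8 except Ccl21a, which had 0 UMIs. On day 8, 6 members were higher, where 20.1% of 6562 genes were higher and 18.5% lower. The ratio was 64.1 for Ccl6, 41.2 for Ccl4, 37.3 for Ccl3, 14.6 for Ccl9, 13.0 for Ccl7 and 4.12 (4.03 to 4.22) for Ccl2. On day 13, 5 members were higher, where 20.2% of 6412 genes were higher and 24% lower. On day 20, 5 members were higher, where 22.1% of 6573 genes were higher and 20.7% lower. The member outside that count on both days was Ccl2, with a ratio of 1.25 (1.23 to 1.28) on day 13 and 0.707 (0.696 to 0.718) on day 20. For Ccl7 the ratio was 8.80 on day 13 and 3.71 (3.61 to 3.82) on day 20. On day 0, 4 members were higher in macrophage-like cells and Ccl2 and Ccl21a were lower, where 19.1% of 7680 genes were higher and 25.5% lower. For Ccl2 that day 0 direction rests on the 4 mesenchymal-like cells named above. With clusters of fewer than 20 cells in a library left out, the log2 ratio of Ccl2 was 1.24 in place of -3.25.

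Low levels in other classes were set against the level of macrophage marker genes there, because free RNA from abundant cells can give UMIs in other droplets. In AT2-like cells (named from alveolar type 2 markers; 418, 558 and 622 cells on days 8, 13 and 20), Ccl2 stood at 5.73%, 9.18% and 2.96% of its macrophage-like level on days 8, 13 and 20. The 11 macrophage markers with at least 100 CPM in macrophage-like cells spanned 2.39% to 6.46%, 3.10% to 10.3% and 0.792% to 6.21% of their own macrophage-like levels there. Ccl3, Ccl6 and Ccl7 lay in these ranges on each culture day, and Ccl4 fell under the range on day 20, at 0.758%. Whether free RNA gave these AT2-like levels was not tested. In airway secretory-like cells (143, 510 and 312), the same markers spanned 3.29% to 7.88%, 3.84% to 7.50% and 2.61% to 4.86%. Ccl2 there stood at 6.70%, 9.32% and 6.34%, above the range on days 13 and 20. Ccl3 was above it on day 13, at 7.62%, and Ccl7 on day 20, at 5.11%. After thinning, 17.5%, 5.75% and 4.95% of AT2-like cells had a Ccl2 UMI, at median depths of 12296, 13465 and 14073 UMIs. In mesenchymal-like cells, Ccl2 stood at 24.3%, 79.8% and 141% and Ccl7 at 7.66%, 11.4% and 26.9% of the macrophage-like level. The markers there spanned 1.34% to 4.64%, 3.07% to 10.1% and 1.65% to 16.5%, so both genes lay above the range on each day. Lpl set the upper end of that range on each day. Ccl3, Ccl4 and Ccl6 lay within it, at 1.56% to 4.49%, and whether free RNA gave these levels was not tested. Ccl9 stood at 6.84% on day 8, above the range. On days 13 and 20 the macrophage-like level of Ccl9 was under the 100 CPM set for this percentage, and Ccl9 stood at 59.1 CPM in macrophage-like and 15.7 CPM in mesenchymal-like cells on day 20, a ratio of 3.76.

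On day 0 most UMIs of Ccl2, Ccl3, Ccl4, Ccl7 and Ccl9 were outside the macrophage-like class of the joint clustering, and those of the first 4 were held by few cells. Over the whole library, Ccl2, Ccl7, Ccl3 and Ccl4 stood at 73.6, 49.9, 93.6 and 112 CPM, and the top 1% of cells held 67.8%, 80.1%, 60.9% and 77.1% of their UMIs. Ccl9, at 76.8 CPM, was spread more widely, with a UMI in 960 cells and 27.8% of its UMIs in the top 1% of cells. Clusters 17 and 19 (570 and 503 cells), left unnamed because genes of several immune types led them, held 69.4% of the Ccl2, 76.3% of the Ccl7, 71.8% of the Ccl4, 67.3% of the Ccl9 and 54.7% of the Ccl3 UMIs. Macrophage-like cells held 69.7% of the Ccl6 UMIs and at most 26.9% of those of each other member. Clustering day 0 alone gave 1218 macrophage-like cells. These held 92.2% of the Ccl7, 87.3% of the Ccl6, 83.7% of the Ccl2, 63.7% of the Ccl3, 63.1% of the Ccl9 and 53.9% of the Ccl4 UMIs. So the number of members with most of their UMIs in macrophage-like cells was 1 with joint clustering and 6 with day 0 on its own.

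Clustered alone, day 0 showed which cells carried each gene. A cluster of 184 cells led by Retnla, C1qa, C1qc and Pf4 had 689 CPM of Ccl2, 393 CPM of Ccl7, 473 CPM of Ccl3 and 458 CPM of Ccl4. A cluster of 568 cells led by Chil3, Fabp1, Ear1 and Marco held 65.1% of all Ccl6 UMIs at 3893 CPM, and 98.1% of its cells had a Ccl6 UMI. Monocyte-like cells (477) held 23.6% of the Ccl9 UMIs, and 1 cluster of 407 of them, with Cx3cr1 and Plac8, had 364 CPM of Ccl9. T and NK-like cells (890) held 28.2% of the Ccl4 and 21.6% of the Ccl3 UMIs. Most of these came from 11 and 10 cells of a single cluster, with 838 UMIs of Ccl4 and 551 UMIs of Ccl3. Of the Ccl2 UMIs, 7.13% (156 UMIs) lay in mesothelial-like cells and 1 UMI in mesenchymal-like cells. In the joint clustering mesenchymal-like cells held 124 Ccl2 UMIs, and mesothelial-like cells stood at 26.7 CPM. The split of Ccl2 between these classes thus depended on the clustering, and whether the same cells changed class was not tested.

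Within macrophage-like cells of the cultures, Ccl6 and Ccl9 varied most between clusters. Among clusters of at least 50 cells, the highest level of Ccl6 was 8.26, 17.6 and 7.51 times the lowest on days 8, 13 and 20. For Ccl9 it was 2.97, 43.4 and 58.7 times, and for Ccl2 1.67, 2.80 and 2.72 times. Cluster 7 (led by Ccn3, Ctsk and Marco) had the highest Ccl6 on days 8 and 13, at 5966 and 6636 CPM, and the highest Ccl9, at 722 and 806 CPM, though on day 13 it held only 60 cells. The median cluster had 122 CPM of Ccl9 on that day and 68.0 CPM on day 20. Cluster 7 also had the lowest Ccl2 and Ccl7 of day 13, at 249 and 46.9 CPM. On day 20, cluster 1 (Mmp12, Pf4, Spp1, Arg1), with 51 cells, had the highest Ccl9, Ccl4 and Ccl3, at 599, 934 and 386 CPM, and the lowest Ccl7, at 99.4 CPM. The lowest Ccl9 of day 20 was 10.2 CPM in cluster 4, led by Iigp1 and Ms4a7. Ccl3 and Ccl4 ranged 6.21-fold and 7.04-fold on that day, and Ccl7 4.92-fold.

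**Figure D4:**
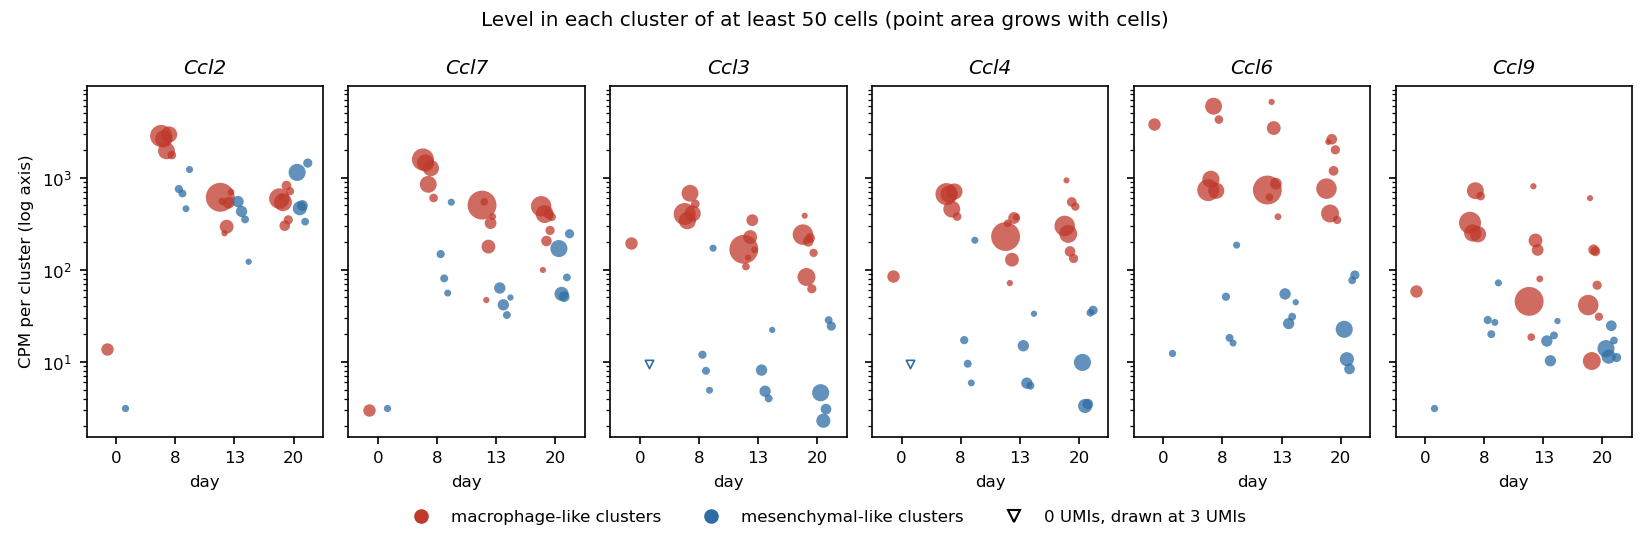
Level of 6 members (y axis, CPM, log scale) in each macrophage-like and mesenchymal-like cluster of at least 50 cells in a library, by day, with point area growing with the number of cells and open triangles for 0 UMIs drawn at 3 UMIs. Ccl2 lies close together among macrophage-like clusters, and Ccl9 spreads 58.7-fold among them on day 20, where the highest cluster has 51 cells.

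Some pairs of members, neighbours on chromosome 11 or not, were found together in the same cells of the cultures more often than their separate shares give. In thinned macrophage-like cells, the share with both Ccl2 and Ccl7 was 1.10, 1.40 and 1.41 times the product of the single shares on days 8, 13 and 20. For Ccl3 and Ccl4 it was 1.17, 1.58 and 1.54 times, and for Ccl6 and Ccl9 1.13, 1.16 and 1.37 times. Ccl7 and Ccl9 lay under the product, at 0.950, 0.779 and 0.709 times. In mesenchymal-like cells Ccl2 and Ccl7 were together 1.45, 1.65 and 1.93 times as often. Such a ratio cannot pass 1 over the larger single share, so its values on different days are not on the same scale. On day 8, 85.9% of thinned macrophage-like cells had a Ccl2 UMI, and 94.7% of those with Ccl7 did. These are descriptions of cells within a library.

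Across 27 profiles of a class in a library, the gene most like Ccl3 was Ccl4 and the gene most like Ccl2 was Ccl7. Likeness was Pearson's r of log2(CPM + 10) over 11546 genes, given as a description, since profiles share libraries and depth. Ccl3 and Ccl4 had r = 0.981, and Atp8b4 was also among the 5 genes most like each, at 0.934 for Ccl3 and 0.907 for Ccl4. Ccl2 and Ccl7 had r = 0.929, and the next gene was Igf1 for Ccl2 (0.888) and Pf4 for Ccl7 (0.924). Ccl6 was closest to the macrophage genes Adgre1 (0.958), Mpeg1 (0.958) and Marco (0.956). Ccl9 was closest to the myeloid receptor gene Clec4e (0.941) and to Alox5ap (0.937). Ccl21a was closest to the lymphatic marker Mmrn1 (0.933).

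The 120 bases before the annotated start of Ccl6 and Ccl9, neighbours with the widest spread between macrophage-like clusters, are printed to show which of the searched letters each holds. They are the minus strand of RefSeq's GRCm38.p6 at chr11:83593088-83593207 and chr11:83578637-83578756. Promoters of 4 of the 7 members (Ccl3, Ccl6, Ccl9 and Ccl21a) were matched. Capitals mark matches, on either strand, to TATAAA, to the AP-1 letters TGANTCA and to the ETS core GGAAGT.
Ccl6: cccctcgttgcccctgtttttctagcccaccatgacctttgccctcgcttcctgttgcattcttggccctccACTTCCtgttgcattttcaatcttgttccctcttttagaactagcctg
Ccl9: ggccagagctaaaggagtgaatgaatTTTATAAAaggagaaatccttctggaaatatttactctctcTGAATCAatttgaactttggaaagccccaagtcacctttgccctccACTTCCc
Both held the ETS letters, at position -48 in Ccl6 and -7 in Ccl9, counted from the start. Ccl9 also held overlapping matches to TATAAA on both strands, at -94 and -92, and the AP-1 letters at -53. Over 32851 promoter windows of the same length, 11.6% held the ETS letters, 6.34% TATAAA and 3.41% the AP-1 letters. The windows of Ccl3 and Ccl21a held none of these letters. A match is only a description of the letters.

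Ccl21a was a gene of lymphatic endothelial-like cells of day 0. The 132 such cells (1.93% of the library) had 55570.5 CPM (54693.9 to 56457.6), with 15317 UMIs, 94.6% of all UMIs of the gene. Of these cells 131 had a UMI, and all 67 deep enough to be thinned did. Their class was named from 6 markers, among them Prox1, Flt4 and Mmrn1 at 642, 1371 and 3897 CPM. The next levels were 156 CPM (139.6 to 174) in neutrophil-like cells and 141 CPM (106 to 185) in mesenchymal-like cells, whose intervals overlap. AT1-like cells had 63.1 CPM and macrophage-like cells 21.7 CPM. The calls of lower Ccl21a in other classes rest on such levels, and whether free RNA from lymphatic cells gave them was not tested. After thinning, 31.4% of neutrophil-like, 2.23% of AT1-like and 1.44% of macrophage-like cells had a Ccl21a UMI, at median depths of 1925, 2769 and 5883.5 UMIs. The neutrophil-like UMIs were nearly all in cluster 21 (322 of 327), whose leading genes also include the airway gene Scgb1a1 and the plasma cell gene Jchain. Of the related copies, Ccl21b had 3.63 CPM and Ccl21d 127 CPM in the lymphatic cells.

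No Ccl21a UMI was found in any culture barcode, kept or left out. A count of 0 allows up to 0.0203, 0.0256 and 0.0203 CPM in the kept barcodes of days 8, 13 and 20, taken as 3 UMIs per library. The exact upper bound on the share of cells with a UMI was 0.0467%, 0.0396% and 0.0402%. No lymphatic endothelial-like cell was found in cultures, so the loss of the cells and of their RNA cannot be told apart.

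Of 16 other CC ligands on the list, 15 were measured and 10 reached 20 CPM in some class of at least 50 cells. The largest in macrophage-like cells were Ccl8 and Ccl12, a rodent monocyte attractant. Ccl8 stood at 6.23, 176.5, 12894 and 13991 CPM on days 0, 8, 13 and 20, and Ccl12 at 9.22, 409, 659 and 1089 CPM. Unlike the 6 members, both were higher on day 20 than on day 8 in macrophage-like cells, as was Ccl5, and no other listed ligand could be tested there. Ccl5 reached 16453 CPM in T and NK-like cells of day 20. On day 0, Ccl19 reached 783 CPM in smooth muscle and pericyte-like cells, Ccl17 99.8 CPM in the unnamed clusters, Ccl11 86.5 CPM in mesenchymal-like cells, Ccl24 66.3 CPM in neutrophil-like cells, Ccl27a 51.4 CPM in smooth muscle and pericyte-like cells and Ccl22 44.0 CPM in B-like cells. Of the 653 neutrophil-like cells of day 0, 450 belonged to the mixed cluster 21 described above, so the Ccl24 level cannot be assigned to neutrophils alone. Ccl20 reached 39.7 CPM in AT2-like cells of day 13.

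Of 14 receptors, 10 reached 20 CPM. Ccr1 stood at 44.9, 62.8, 70.3 and 108 CPM in macrophage-like cells on days 0, 8, 13 and 20. Ccr2, the receptor of Ccl2 and Ccl7, stood at 17.2, 5.28, 2.76 and 1.51 CPM in these cells, and at 312 CPM in T and NK-like cells of day 20. Ccr7, the receptor of Ccl21a, was found at 199.5 CPM in B-like and 167 CPM in T and NK-like cells of day 0. Ackr2, which scavenges CC chemokines, had its highest level, 163 CPM, in lymphatic endothelial-like cells. Highest levels elsewhere were all on day 0. They were 270 CPM for Ccr9 in T and NK-like cells and 147 CPM for Ccrl2 in neutrophil-like cells, the class with the mixed cluster 21. Ccr10 and Ccr6 reached 34.1 and 30.3 CPM in B-like cells, and Ackr4 25.1 CPM in endothelial cells.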

How the data were processed

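Per the labels, single-cell suspensions were sequenced with 10x Chromium 3' v3.1 kits, and their molecule field reads nuclear RNA. Per the submitters' processing notes, Cell Ranger 7.0.1 and mm10 were used. The deposited matrices hold raw UMI counts per gene and barcode that the authors did not normalize, in 1 library per day. Barcodes with at least 500 genes and at most 15% mitochondrial UMIs were kept. Because the automatic Scrublet threshold marked no barcode in 3 libraries, those with the highest doublet scores were removed, at 0.8% per 1000 barcodes. The 4 libraries were clustered together in Scanpy 1.11.5 with 2000 variable genes, 30 components, 15 neighbours and Leiden resolution 1, leaving out chemokine ligands and reporter genes. Clusters were named from marker lists, and the macrophage, monocyte and dendritic lists were merged for naming after the data had been seen. Counts were summed per class and day as CPM, with a side under 3 UMIs set to 3 in ratios. SciPy 1.17.1 gave intervals. The ratio step was tested on simulated data. The members, lists and rules were chosen with earlier results of these data known. Named genes were the 7 members, listed CC ligands and receptors reaching 20 CPM, and the 5 genes most like each member (only some printed, and a listed gene is not reported here). Other lists were NF-kB targets and immediate early genes. Alternatives changed filters, doublets, clustering, weighting of cells and cells with most UMIs.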

Additional observations from a re-analysis of the deposited data

Results flagged for a closer look

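Between days, 4 ratios pointed one way in macrophage-like cells and the other way in mesenchymal-like cells, with both intervals excluding 1. These differences were not tested, since each day is 1 library. For Ccl2, day 20 was 0.210 of day 8 in macrophage-like cells and 1.23 times day 8 in mesenchymal-like cells. For Ccl7, the same comparison gave 0.308 in macrophage-like cells and 1.08 in mesenchymal-like cells. Ccl7 on day 20 was 0.955 of day 13 in macrophage-like cells and 2.27 times day 13 in mesenchymal-like cells. Ccl6 on day 13 was 0.708 of day 8 in macrophage-like cells and 1.53 times day 8 in mesenchymal-like cells, where its level lay within the range of macrophage markers. The mesenchymal-like side of 3 of these turned with doublets kept and with cells weighted equally. Its log2 ratio, 0.29, 0.11 and 0.61 as reported for Ccl2 and Ccl7 between days 20 and 8 and Ccl6 between days 13 and 8, was -0.07, -0.76 and -0.90 with doublets kept and -0.29, -1.21 and -0.93 with cells weighted equally. For Ccl7 between days 20 and 13, the macrophage-like side turned with cells weighted equally (0.01 in place of -0.07).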

How the results depend on the processing

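No paired analysis was possible because each day has 1 library, and for the same reason no library could be left out. Alternatives changed the cell filters, doublet removal, clustering, scaling and weighting of cells, and 3 added after seeing the data left out clusters of under 20 cells in a library, the low-depth mesenchymal-like cluster 23, or clusters of high Mki67. In macrophage-like cells, the counts of members called between culture days were within 1.5 times the reported ones under all alternatives, as were the counts of members higher in macrophage-like than in mesenchymal-like cells on days 8, 13 and 20. Over all alternatives, 361 of the counts stayed within 1.5 times and 31 did not. Of the log2 ratios of members, 19 lost the call and 34 gained one. The sign turned in 3 of 629 values of called ratios and in 29 of 420 values of ratios not called. Among these, Ccl7 in macrophage-like against mesenchymal-like cells of day 0, -0.76 as reported, was 3.89 with libraries clustered on their own, 0.07 with no cell filter and 0.04 with cells weighted equally. With each library clustered on its own, 6 members had most of their UMIs in macrophage-like cells of day 0, against 1 as reported. The member lower in macrophage-like cells of day 8 than of day 0 (Ccl21a, 1 as reported) dropped to 0 with doublets kept, with cells weighted equally, and without the 1% of cells with most UMIs. Its day 0 level, 21.7 CPM, lies near the 20 CPM the call needs, and its log2 ratio stayed between -9.93 and -7.12. In mesenchymal-like cells, members higher on day 8 than on day 0 (2 reported) were 6 with doublets kept and with cells weighted equally, 1 with at least 1000 genes and 4 without high Mki67; the member lower (1 reported) became 0 without the 1% of cells with most UMIs. Members lower on day 13 than on day 8 (1 reported) were 4 with doublets kept, 5 with cells weighted equally, and 0 with at most 10% mitochondrial UMIs, at least 1000 genes, no cell filter, Leiden resolution 0.5 or 2.0, libraries clustered on their own, chemokines among the clustering genes, or without the low-depth cluster. Members higher on day 20 than on day 13 (1 reported) were 0 with doublets kept and 2 with libraries clustered on their own. Members lower there (1 reported) were 0 with doublets kept, libraries clustered on their own, cells weighted equally or without high Mki67. Members lower on day 20 than on day 8 (0 reported) were 4 with doublets kept, 5 with cells weighted equally and 1 without high Mki67. On day 0, members lower in macrophage-like than in mesenchymal-like cells (2 reported) were 1 with libraries clustered on their own or without small clusters, and 0 without the 1% of cells with most UMIs. The log2 ratio of Ccl2 in that comparison, -3.25 as reported, changed sign to 4.30 with libraries clustered on their own, 0.30 without the 1% of cells with most UMIs and 1.24 without small clusters. The causes were not tested. The shallower day 0 library limits the low levels there, where 1 to 15 UMIs carry several values of mesenchymal-like cells.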

Other observations

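A list of 12 NF-kB targets without CC chemokines, such as Cxcl2, Tnf and Nfkbia, summed to 1569, 1211, 671 and 452 CPM in macrophage-like cells on days 0, 8, 13 and 20, so its sum was lower on day 8 than on day 0 while 5 members were higher. Of the 11 that could be tested between days 8 and 0, 0 were at least 2-fold higher and 5 lower, where 11.2% of all genes tested were higher and 17.3% lower. Between days 13 and 8, 0 of 7 were higher and 3 lower, where 4.29% of all genes tested were higher and 6.64% lower. A list of 12 immediate early and dissociation response genes summed to 3072, 1966, 2081 and 1151 CPM in these cells. Of its 10 genes tested between days 8 and 0, 1 was higher and 2 were lower, shares near those of all genes tested. Between days 13 and 8, 1 of 11 was higher and 1 lower. Set against day 13, 0 of 11 were higher on day 20 and 4 lower, where 1.82% of all genes tested were higher and 0.849% lower. Set against day 8, 0 of 10 were higher on day 20 and 5 lower, where 5.91% of all genes tested were higher and 5.84% lower.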
